A study of Mus musculus with 4 samples.

Results

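Oligodendrocyte lineage genes were examined in RNA from mouse cortical neuron cultures. The set is defined by name as 9 genes. Of these, 6 mark precursors or early steps of the lineage (Olig1, Olig2, Pdgfra, Cspg4, Sox10 and Gpr17) and 3 encode myelin proteins (Mbp, Cnp and Mog). The table of values listed 8 of the 9, among 18854 genes in all. Mog, which encodes a glycoprotein of the outer myelin surface, was not listed and is not analysed here.

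The p53 activator group held 2 libraries of wild-type cortical neurons cultured for 15 days and then given Nutlin-3 for 2 days. Nutlin-3 is a small molecule that keeps the ubiquitin ligase Mdm2 from binding p53, and its dose is not given in the sources used here. The DMSO group held 2 libraries of wild-type cortical neurons, titled with the solvent and labelled as having no treatment. The sample annotation made for this report sets 15 days in culture for the DMSO libraries too. The design text gives the culture age of the treated neurons only. Whether DMSO cultures were collected at the same age is therefore not given in the sources used here. The labels do not say whether each library had a culture of its own, so the tests read the spread between these libraries, and that spread may be technical. The labels name the cells as neurons and describe no sorting. In such bulk RNA, fewer cells of a type and less RNA per cell cannot be told apart.

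Oligodendrocytes wrap axons in myelin and arise from precursor cells that divide and migrate. Olig1, Olig2 and Sox10 are the transcription factors that set up the lineage, and precursors sense platelet-derived growth factor through the receptor encoded by Pdgfra. As the cells mature they pass through a stage marked by Gpr17 and then switch on myelin genes such as Mbp and Cnp. Several of these genes are also used elsewhere in the brain. Olig1 and Olig2 are made by some progenitors and astrocytes, Pdgfra and Cspg4 by some cells of vessels and meninges, and the Mbp locus also gives Golli transcripts in neurons.

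RefSeq start sites on GRCm38.p6 were found for 5 of the 9 genes. Sequences of 4 listed genes are shown to set genes whose libraries separated by treatment (Pdgfra and Cspg4) beside genes whose libraries did not (Olig2 and Cnp). Each runs 5′ to 3′ on the gene's strand from 250 to 101 bases before the start. Capitals mark the E-box CANNTG, the element that basic helix-loop-helix factors such as Olig1 and Olig2 recognise. All lie on the plus strand, at chr5:75152001-75152150 for Pdgfra, chr9:56864854-56865003 for Cspg4, chr16:91225300-91225449 for Olig2 and chr11:100574689-100574838 for Cnp.
Pdgfra: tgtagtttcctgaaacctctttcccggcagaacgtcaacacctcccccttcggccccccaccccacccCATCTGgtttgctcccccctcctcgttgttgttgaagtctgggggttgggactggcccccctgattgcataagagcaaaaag
Cspg4: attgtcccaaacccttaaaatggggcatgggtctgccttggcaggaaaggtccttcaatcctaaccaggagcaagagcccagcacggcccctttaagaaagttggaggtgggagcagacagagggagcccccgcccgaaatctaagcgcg
Olig2: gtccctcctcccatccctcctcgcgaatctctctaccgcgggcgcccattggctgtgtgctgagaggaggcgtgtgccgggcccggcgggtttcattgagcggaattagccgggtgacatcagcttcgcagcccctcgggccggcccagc
Cnp: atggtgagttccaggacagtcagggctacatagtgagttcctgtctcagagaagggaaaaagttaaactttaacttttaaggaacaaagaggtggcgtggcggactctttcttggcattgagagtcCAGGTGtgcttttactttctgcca

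The windows of Pdgfra and Cnp each held 1 E-box, and those of Cspg4 and Olig2 held 0. Across all 32851 windows of this length, 49.3% held at least 1. The consensus p53 half-site, the sequence that p53 binds in pairs, had 0 matches in each of these 4 windows and was found in 4.46% of all windows. The window of Mog, the fifth found, held 2 half-sites and 0 E-boxes, and Mog has no values here to set beside it. Both elements read the same on either strand. A match describes letters only, and a window with no match says only that these letters are not in it.

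The cultures expressed neuron markers throughout, while the lineage was represented unevenly. All 12 neuron markers were listed, and their summed level was 7724 and 7873 CPM with the p53 activator and 6686 and 7487 CPM in DMSO. CPM are reads scaled to a common library total. Among other cells, 9 of 10 astrocyte markers were listed, with Slc1a2, the main glutamate transporter of astrocytes, at 1572 and 1569 CPM with the activator and 1311 and 1310 CPM in DMSO. Only 4 of 12 microglia markers and 2 of 10 pericyte and endothelial markers were listed. The counted reads per library were 19065197 and 17716272 with the activator and 14584247 and 14968028 in DMSO. Mitochondrially encoded RNAs took 8.97% and 9.99% of reads with the activator and 15.6% and 14.3% in DMSO. Nuclear protein-coding genes took 83% and 82.6% of reads with the activator and 73.4% and 75.8% in DMSO. The median log2 fold change of the 12763 nuclear protein-coding genes tested was 0.09, beside 0.03 for all 16654 genes tested. The part of mitochondrial RNA in this shift was not tested.

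Levels of the members spanned a wide range when set per length of annotated exons. Olig1 led at 56.2 CPM per kb with the activator and 50 CPM per kb in DMSO. Its per-length level stood at the 96.8th percentile of nuclear protein-coding genes tested. Olig2 followed at 8.86 CPM per kb with the activator and 8.8 CPM per kb in DMSO, at the 68.3rd percentile. Then came Cnp (3.35 with the activator and 3.31 CPM per kb in DMSO), Pdgfra (1.61 with the activator and 1.31 in DMSO) and Mbp (1.11 with the activator and 0.986 in DMSO). Cspg4 stood at 0.721 CPM per kb with the activator and 0.553 in DMSO, at the 9.49th percentile. Down to Cspg4, the ranges over the 4 libraries did not overlap between neighbours in this order. Sox10 (0.378 CPM per kb with the activator and 0.177 in DMSO) lay above Gpr17 (0.0982 with the activator and 0.111 in DMSO) in 3 of 4 libraries, and their ranges overlapped.

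**Figure D1:**
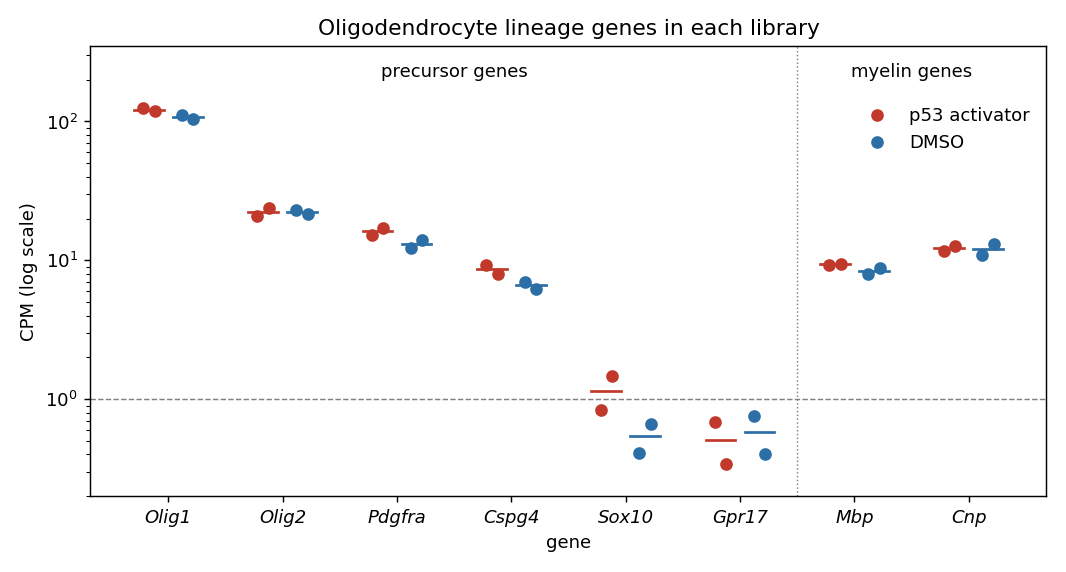
CPM (log scale) of the 8 listed oligodendrocyte lineage genes in each library, with 2 p53 activator libraries (red) left of 2 DMSO libraries (blue) for each gene and a short line at each group mean. Olig1 sits above 100 CPM in every library, Sox10 and Gpr17 lie around or below the dashed line at 1 CPM, and only Sox10 among the 8 differs by more than 2-fold between group means.

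The members were far apart in read number. Sox10, which defines oligodendrocyte lineage cells in the brain, had 16 and 26 reads with the activator and 6 and 10 reads in DMSO. Over the same libraries Olig1 had 2378 and 2098 reads with the activator and 1627 and 1565 reads in DMSO. Per 100 Olig1 reads there were 0.673 and 1.24 Sox10 reads with the activator and 0.369 and 0.639 in DMSO. Sox10 was thus close to the lower limit of counting, while Olig1 was abundant. Olig2, Pdgfra and Cspg4 lay between them. Of these Cspg4 had the fewest reads, 175 and 142 with the activator and 102 and 93 in DMSO. The astrocyte markers summed to 2778 and 2744 CPM with the activator and 2429 and 2387 CPM in DMSO, mostly from Slc1a2 and Slc1a3. Levels differed among them, with Gfap at 7.82 and 4.85 CPM with the activator and 7.47 and 6.08 CPM in DMSO. The part of astrocytes in the Olig1 level was not tested.

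Setting the activator against DMSO asks whether release of p53 from Mdm2 changed these genes. None of the 6 members tested passed the test. Of the p53 targets, neither Mdm2 (log2 fold change -0.16, limma adjusted p = 0.166) nor the cell cycle inhibitor gene Cdkn1a (0.19, adjusted p = 0.215) passed it. Genes needed 1 CPM or more in 2 or more libraries to be tested, which left out Sox10 and Gpr17. limma with an adjusted p under 0.05 called 33.2% of all 16654 genes tested (16.9% higher and 16.3% lower), and 0 of the 6 members. Among nuclear protein-coding genes the share was 28.4% (21.2% higher and 7.19% lower). At an unadjusted p under 0.05 limma gave 3 of the 6 (Olig1, Pdgfra and Cspg4, all with higher values). It gave 42.7% of all genes in either direction and 22.5% with higher values. edgeR on recovered reads tested all 8 listed members and called 0, beside 26.6% of all genes (10.6% higher and 16.1% lower), with 2 at an unadjusted p under 0.05 (Cspg4 and Sox10). DESeq2 gave an adjusted p for 6 members, not for Sox10 and Gpr17, and called 0 of them, beside 18.1% of the 15538 genes with one (8.41% higher and 9.71% lower). At an unadjusted p under 0.05 it had 0 members. A p that misses the threshold does not show that the levels were equal. The limma intervals below are for CPM + 1, which understates changes of low genes. Their width rests on 2 residual and 98 prior degrees of freedom, so mostly on the spread of other genes.

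Among the transcription factors, Olig1 stood at 125 and 118 CPM with the activator and 112 and 105 CPM in DMSO. Both activator libraries were above both DMSO libraries, but the exact Poisson 95% intervals of the nearest libraries overlapped. They were 113 to 124 CPM with the activator and 106 to 117 CPM in DMSO. The means were 122 ± 4.46 CPM with the activator and 108 ± 4.95 CPM in DMSO (SD, n = 2 each), and the log2 fold change was 0.17 ± 0.08 (SE), with a limma adjusted p of 0.0861. Its 95% interval reached from 0.01 to 0.32, which is 1.01-fold to 1.25-fold. Its log2 fold change was 0.07 above the median of nuclear protein-coding genes.

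Olig2, the partner factor that specifies the lineage, stood at 20.8 and 24 CPM with the activator and 23.1 and 21.4 CPM in DMSO. The groups overlapped, with the DMSO libraries inside the range of the activator libraries. The log2 fold change was 0.01 ± 0.11 (SE; limma adjusted p = 0.974), and its 95% interval reached from 0.861-fold to 1.17-fold. Per 100 Olig1 reads there were 16.7 and 20.3 Olig2 reads with the activator and 20.7 and 20.5 in DMSO, a ratio that does not depend on the scaling of a library.

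Sox10, which acts with the Olig factors and later turns on myelin genes, stood at 0.839 and 1.47 CPM with the activator and 0.411 and 0.668 CPM in DMSO. Both activator libraries were above both DMSO libraries, but the counting intervals overlapped. The exact Poisson 95% interval was 0.48 to 1.36 CPM for the lower activator library and 0.32 to 1.23 CPM for the higher DMSO library. Intervals of this kind cover counting error only. The ratio of the group means was 2.14, and edgeR gave a log2 fold change of 1.04 with an adjusted p of 0.114. limma with no filter on low values gave 0.47 ± 0.19 (SE) on the log2(CPM + 1) scale, which understates changes of low genes, with an adjusted p of 0.0999.

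Among surface proteins of precursors, Pdgfra, the receptor for platelet-derived growth factor, stood at 15.2 and 17.1 CPM with the activator and 12.3 and 14 CPM in DMSO. Both activator libraries were above both DMSO libraries, by a small margin between the nearest. The exact Poisson 95% intervals of those nearest libraries overlapped, at 13.5 to 17 CPM with the activator and 12.2 to 16.1 CPM in DMSO. The log2 fold change was 0.28 ± 0.13 (SE; limma adjusted p = 0.0889), with a 95% interval from 1.01-fold to 1.45-fold.

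Cspg4, which encodes the NG2 proteoglycan on the precursor surface, stood at 9.18 and 8.02 CPM with the activator and 6.99 and 6.21 CPM in DMSO. Again the groups did not overlap, but the exact Poisson 95% intervals of the nearest libraries did. They were 6.75 to 9.45 CPM with the activator and 5.7 to 8.49 CPM in DMSO. The log2 fold change was 0.34 ± 0.16 (SE; limma adjusted p = 0.095), with a 95% interval from 1.01-fold to 1.57-fold. With quantile normalization Cspg4 passed the test (0.45, adjusted p = 0.0252), and with cyclic loess too (0.41, adjusted p = 0.0424), while protein-coding scaling, in which each library is set to its protein-coding reads, gave 0.21 (adjusted p = 0.41).

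Pdgfra and Cspg4 are also markers of cells outside the lineage, so the markers of those cells were read beside them. Of the pericyte and endothelial list, 8 of 10 were not listed, and its summed level was 4.77 and 5.81 CPM with the activator and 6.79 and 4.34 CPM in DMSO. Pdgfrb, the pericyte receptor, stood at 2.47 and 3.67 CPM with the activator and 4.87 and 3.07 CPM in DMSO (log2 fold change -0.28, limma adjusted p = 0.272). Of 8 fibroblast markers 6 were listed, summing to 18.3 and 19.9 CPM with the activator and 20 and 19.6 CPM in DMSO, most of it from the matrix proteoglycan gene Dcn at 10.5 and 12.5 CPM with the activator and 11.2 and 12.3 CPM in DMSO. Of both lists 0 genes were called by limma, by edgeR or by DESeq2. An unadjusted limma p under 0.05 was found for 1 fibroblast gene, Col1a1, which was lower with the activator (log2 fold change -0.43). It stood at 1.63 and 1.13 CPM with the activator and 1.99 and 2.41 CPM in DMSO. Rgs5, a pericyte regulator of G protein signalling and the other listed gene of its list, is named after its values were seen. It stood at 2.31 and 2.14 CPM with the activator and 1.92 and 1.27 CPM in DMSO (0.33, limma adjusted p = 0.222). It was called under the same 2 settings as Cspg4, quantile normalization (0.56, adjusted p = 0.0421) and cyclic loess (0.56, adjusted p = 0.0365). Its part in the Cspg4 values was not tested.

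Gpr17, a receptor of precursors that have begun to differentiate, was close to the lower limit of counting. It had 13 and 6 reads with the activator and 11 and 6 reads in DMSO, or 0.682 and 0.339 CPM with the activator and 0.754 and 0.401 CPM in DMSO. The groups overlapped and edgeR gave a log2 fold change of -0.19 (adjusted p = 0.827). In GENCODE vM21 exons of Gpr17 overlap those of Lims2 on the other strand, and Lims2 was not listed. The strand setting of the authors' counting is not given in the sources used here, so these few reads cannot be assigned with certainty. Exons of Olig1 overlap those of Gm15966, and exons of Pdgfra overlap those of Gm42802. Neither of these was listed, and how reads over the shared exons were assigned is not given.

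Neither listed myelin gene passed the test. Mbp, which encodes the protein that compacts the myelin membrane, stood at 9.28 and 9.48 CPM with the activator and 7.95 and 8.75 CPM in DMSO. Both activator libraries were above both DMSO libraries, yet the exact Poisson intervals of all 4 overlapped. The log2 fold change was 0.15 ± 0.15 (SE; limma adjusted p = 0.468), with a 95% interval from 0.902-fold to 1.37-fold. The table has 1 row for the locus, so myelin and Golli transcripts of Mbp are not separated.

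Cnp, a phosphodiesterase of the uncompacted myelin that also appears early in the lineage, stood at 11.7 and 12.7 CPM with the activator and 10.9 and 13.2 CPM in DMSO. The activator libraries lay inside the range of the DMSO libraries. The log2 fold change was 0.02 ± 0.14 (SE; limma adjusted p = 0.916), with a 95% interval from 0.84-fold to 1.23-fold. Exons of Cnp overlap those of Dnajc7, a cochaperone gene on the other strand that was more abundant, at 95.3 and 88.1 CPM with the activator and 81 and 80 CPM in DMSO, so part of the Cnp reads is uncertain in the same way.

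**Figure D2:**
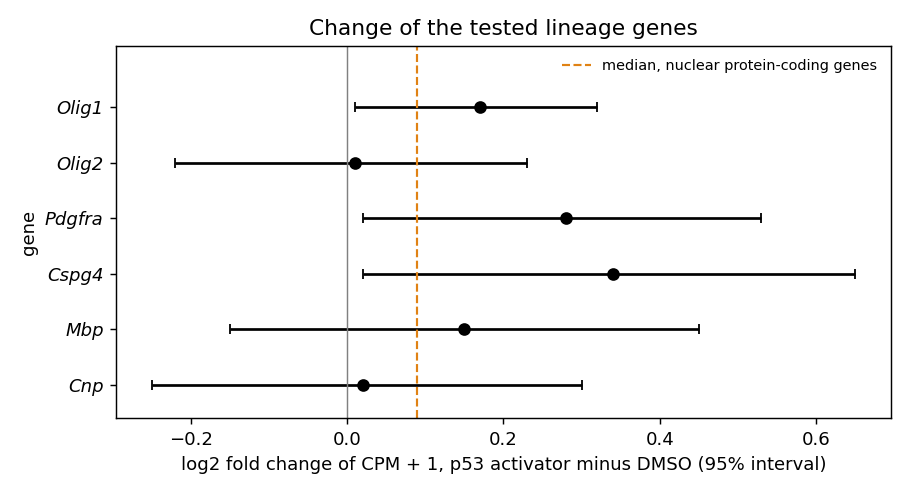
log2 fold change of CPM + 1, p53 activator minus DMSO, of the 6 tested lineage genes with limma 95% intervals (horizontal bars), beside 0 (grey line) and the median of nuclear protein-coding genes at 0.09 (dashed line). The intervals of all 6 include that median, and the points run from 0.01 for Olig2 to 0.34 for Cspg4.

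Set side by side, the 4 tested precursor genes had a median log2 fold change of 0.22 and the 2 tested myelin genes one of 0.09, beside 0.03 for all genes tested and 0.09 for nuclear protein-coding genes. Summed over the 6 listed, precursor genes reached 171 and 169 CPM with the activator and 155 and 147 CPM in DMSO, mostly Olig1. The 2 listed myelin genes summed to 21 and 22.2 CPM with the activator and 18.9 and 21.9 CPM in DMSO. Precursor sums did not overlap between groups and neither did 5 of the 8 single members (Olig1, Pdgfra, Cspg4, Sox10 and Mbp, all higher). Of the 6 tested, 4 were apart and higher, where 36.6% of all genes tested and 45.2% of nuclear protein-coding genes were. The difference between precursor and myelin genes was not tested.

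These small differences stand beside the shift in composition. Protein-coding scaling moved the median of those genes by -0.14, which put it at -0.04, and the log2 fold changes were 0.02 for Olig1, -0.14 for Olig2, 0.14 for Pdgfra, 0.21 for Cspg4, 0.02 for Mbp and -0.12 for Cnp. Relative to that median, Olig1 stood at 0.06, Pdgfra at 0.18 and Cspg4 at 0.25, against 0.07, 0.18 and 0.24 on the deposited scale. The order of the members by change was the same for the extremes under both scalings, with Cspg4 highest and Olig2 lowest.

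Other genes of the lineage were read from lists chosen for the report, and most of those tested did not pass the test either. Of 16 further precursor genes 15 were listed and 12 tested, of which 3 rose and 1 fell, with a median log2 fold change of 0.00. Of all genes tested limma called 16.9% higher and 16.3% lower, and of nuclear protein-coding genes 21.2% and 7.19%. The counts of this and the later lists stand beside these shares. Tnr, a matrix protein made by precursors and also by interneurons, rose, at 276 and 299 CPM with the activator and 215 and 248 CPM in DMSO (log2 fold change 0.31 ± 0.08 SE, limma adjusted p = 0.00108). Lhfpl3 rose (0.32, adjusted p = 0.00514), at 44.6 and 42.7 CPM with the activator and 34.8 and 34.8 CPM in DMSO. Sulf2, an enzyme that trims heparan sulfate, was the other that rose (0.26, adjusted p = 0.0124), and is named because the count is small. None of these 3 rises passed the test under protein-coding scaling, after cyclic loess or in limma without a trend. The calls depended on single libraries too, and not all held when 1 was left out. With quantile normalization 1 gene of the list was called higher, and in DESeq2 also 1. Over the 17 alternatives, which include leaving out each library, the log2 fold change ran from 0.12 to 0.42 for Tnr. For Lhfpl3 it ran from 0.17 to 0.35.

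Pcdh15, a protocadherin expressed by precursors and also in other brain cells, was the member of that list that fell. It stood at 43.5 and 39.1 CPM with the activator and 69.7 and 67 CPM in DMSO, so the groups were far apart. The log2 fold change was -0.71 ± 0.09 (SE; limma adjusted p = 7.47e-11), and the call held in all 17 alternatives, between -0.87 and -0.64. Levels within the list differed widely. C1ql1, a secreted C1q family protein, stood at 0.42 and 0.169 CPM with the activator and 0.411 and 0.2 CPM in DMSO. Nkx2-2, a factor of early differentiation, stood at 0.21 and 0.452 CPM with the activator and 0.549 and 0.401 CPM in DMSO. Ptprz1, a phosphatase shared with astrocytes and progenitors, was the most abundant of the list at 1304 and 1386 CPM with the activator and 1261 and 1227 CPM in DMSO (0.11, limma adjusted p = 0.406).

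Of 14 genes of newly formed oligodendrocytes 12 were listed and 10 tested, of which 1 rose and 0 fell (median -0.02). That 1 was Mycl, a transcription factor of the Myc family that neurons also express, at 37.6 and 37.9 CPM with the activator and 29.1 and 29 CPM in DMSO (log2 fold change 0.37 ± 0.10 SE, limma adjusted p = 0.00197). Under protein-coding scaling its call was lost (0.22, adjusted p = 0.102) and 4 genes of the list were called lower. The Mycl call was lost in limma without a trend too. Bcas1, a marker of cells that are starting to myelinate, stood at 1.26 and 0.395 CPM with the activator and 0.823 and 0.401 CPM in DMSO. Nfasc, an adhesion molecule of nodes and axon segments, was the most abundant at 193 and 215 CPM with the activator and 213 and 207 CPM in DMSO (-0.05, limma adjusted p = 0.675).

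Mature oligodendrocyte genes were sparse. Of 30 such genes besides the 3 above, 15 were not listed, among them Mag, Mobp, Opalin and Aspa, and 4 more were listed with a mean under 1 CPM. Since 32 genes of the table stood at 0 in all 4 libraries, a gene that is not listed is not the same as a gene at 0, and the rule by which rows were kept is not given in the sources used here. Of the 11 tested, limma called 0 in either direction, and edgeR and DESeq2 called 0 too. At an unadjusted limma p under 0.05 was 1, Trf, which was lower with the activator. Myrf, the factor that switches on the myelin programme, stood at 0.577 and 0.734 CPM with the activator and 0.617 and 1.14 CPM in DMSO. Car2, a carbonic anhydrase found in other cells too, led the list at 16.5 and 16.6 CPM with the activator and 16.7 and 13.8 CPM in DMSO.

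**Figure D3:**
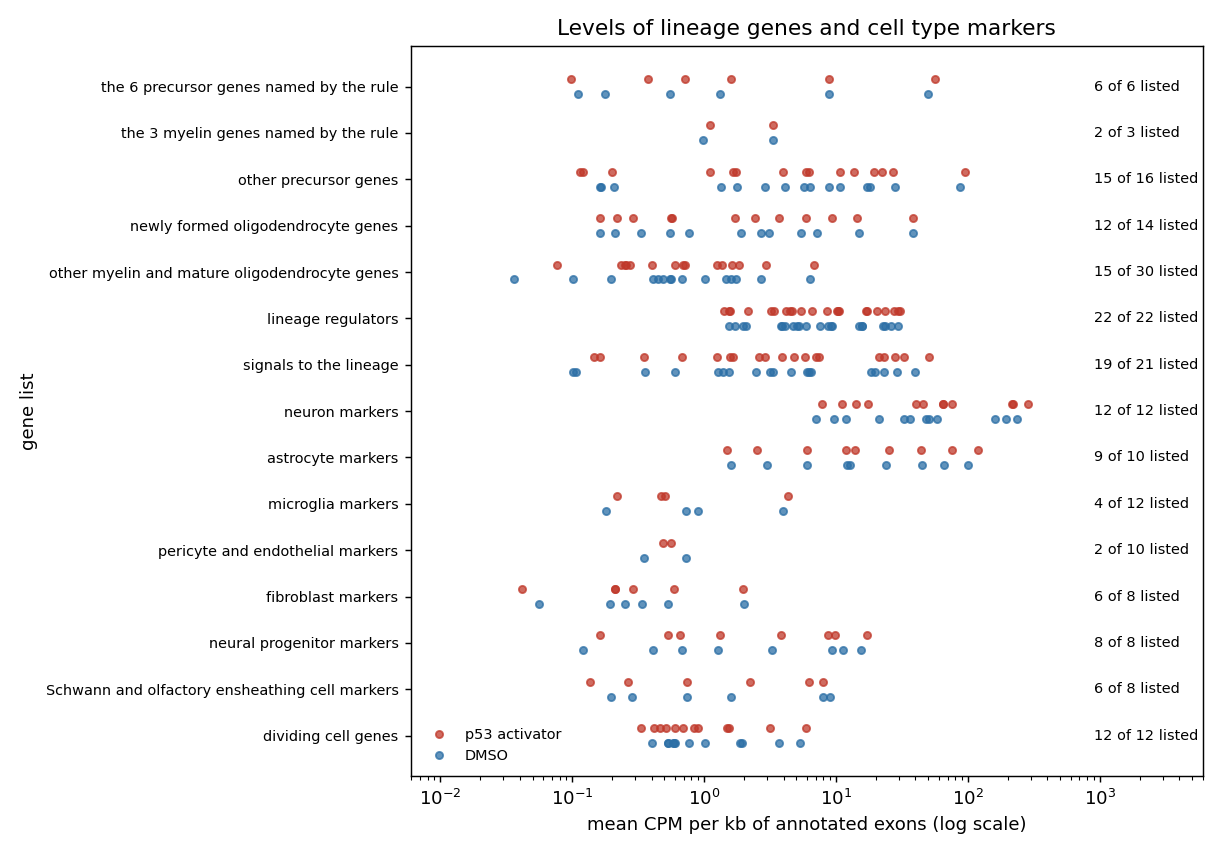
Mean CPM per kb of annotated exons (log scale) of each listed gene in the lineage and marker lists, with p53 activator means (red) above DMSO means (blue) and the number listed at the right. Neuron and astrocyte markers reach above 100 CPM per kb, while the mature oligodendrocyte genes stay below 10 and 15 of the 30 were not listed.

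Of 22 regulators that steer the lineage and also act in other neural cells, all were tested, 4 rose and 2 fell (median 0.13). Among all genes tested 16.9% were called higher and 16.3% lower. Id2, an inhibitor of basic helix-loop-helix factors that holds precursors back from differentiating, stood at 49.1 and 51.5 CPM with the activator and 37.6 and 38.7 CPM in DMSO (log2 fold change 0.39 ± 0.09 SE, limma adjusted p = 0.000381). Klf9, a hormone-induced zinc finger factor, rose as well (0.37, adjusted p = 8.28e-05). The call of Id2 held in all 17 alternatives, and that of Klf9 was lost in 1, limma without a trend (adjusted p = 0.0586).

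The pair that fell were Chd7, a chromatin remodeler that acts with Sox10, and Sox5, which restrains Sox10 targets. Chd7 stood at 24.1 and 19.1 CPM with the activator and 28.7 and 25.6 CPM in DMSO (-0.32, limma adjusted p = 0.0168). Sox5 stood at 47.1 and 45.7 CPM with the activator and 60.7 and 50.4 CPM in DMSO (-0.25, adjusted p = 0.0246). Both calls were lost without DMSO replicate 1 (-0.24, adjusted p = 0.24 for Chd7 and -0.12, adjusted p = 0.545 for Sox5) and without p53 activator replicate 2 (-0.16, adjusted p = 0.378 and -0.23, adjusted p = 0.106). They were lost too in DESeq2 (adjusted p = 0.117 for Chd7 and 0.115 for Sox5), with no filter (0.083 and 0.0853) and in limma without a trend (0.145 and 0.188). The regulators that rose were 2 without DMSO replicate 1, without DMSO replicate 2 or without p53 activator replicate 2, and those that fell were 5 under protein-coding scaling. Tcf4, the most abundant of the regulators, stood at 756 and 741 CPM with the activator and 830 and 783 CPM in DMSO (-0.11, limma adjusted p = 0.366).

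Of 21 ligands and receptors that signal to the lineage 19 were listed and 17 tested, of which 3 rose and 0 fell (median 0.12). By limma 16.9% of all genes tested were called higher and 16.3% lower. At an unadjusted limma p under 0.05 were 6 of the 17, beside 42.7% of all genes tested. The 19 listed summed to 1233 and 1270 CPM with the activator and 1051 and 1122 CPM in DMSO, so the sums did not overlap. Single genes were apart and higher in 8 of the 17 tested, beside 36.6% of all genes tested and 45.2% of nuclear protein-coding genes. Pdgfa, the ligand of Pdgfra, stood at 65.2 and 65.9 CPM with the activator and 60.4 and 62.7 CPM in DMSO (0.09, limma adjusted p = 0.436). Lingo1, a neuronal and glial membrane protein that restrains myelination, rose, at 218 and 256 CPM with the activator and 175 and 201 CPM in DMSO (0.33 ± 0.08 SE, adjusted p = 0.000625). Tnfrsf21, a death receptor that also restrains myelination, rose, at 92.6 and 97.8 CPM with the activator and 74.9 and 75.8 CPM in DMSO (0.33, adjusted p = 0.000676). Wnt7b was the third (0.30, adjusted p = 0.00209) and is named because the count is small.

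These 3 rises depended on the scaling, the spread model and single libraries. In limma without a trend none was called. None was called under protein-coding scaling, nor after cyclic loess, and 1 was called without DMSO replicate 1 and 1 without p53 activator replicate 2. Erbb4, the neuregulin receptor that interneurons carry, was the most abundant at 418 and 397 CPM with the activator and 346 and 367 CPM in DMSO (0.19, limma adjusted p = 0.0552). Erbb3, the neuregulin receptor of the oligodendrocyte lineage, was not listed.

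**Figure D4:**
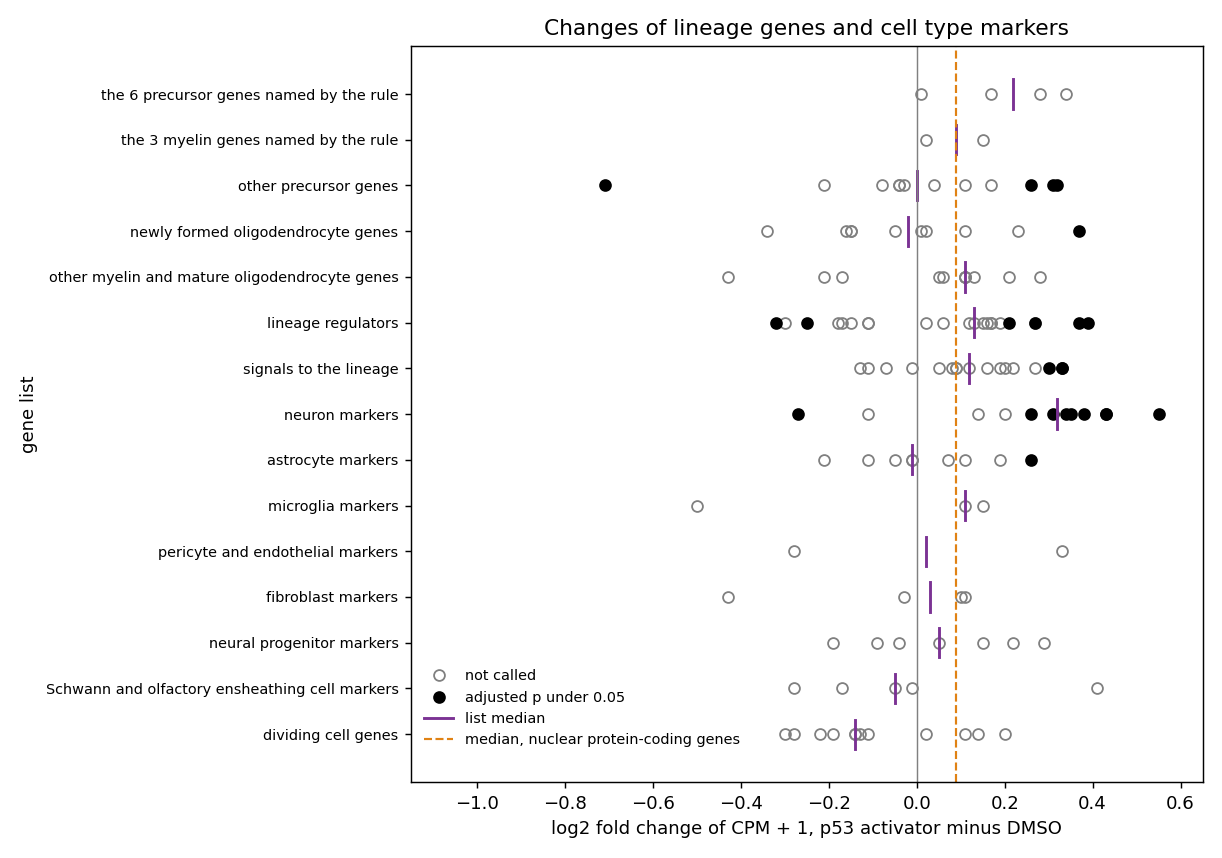
log2 fold change of CPM + 1, p53 activator minus DMSO, of each tested gene (open circles not called, filled circles adjusted p under 0.05) by list, with list medians (purple) and the median of nuclear protein-coding genes at 0.09 (dashed). No circle is filled for the precursor and myelin genes named by the rule or for the mature oligodendrocyte list, while 8 neuron markers rose and 1 fell.

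Markers of other cells were set beside the lineage. Of 12 neuron markers 8 rose and 1 fell (median 0.32), with the neuronal tubulin Tubb3 at a log2 fold change of 0.55, the vesicular glutamate transporter Slc17a7 at 0.43 and the splicing factor Rbfox3 at -0.27 as those named. Map2, the most abundant, stood at -0.11 (limma adjusted p = 0.581). After cyclic loess 2 neuron markers rose and 2 fell, and in limma without a trend 1 rose and 0 fell. The fall of Rbfox3 was lost too without DMSO replicate 1 and without p53 activator replicate 2.

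Of 9 astrocyte markers tested 1 rose, which was Slc1a2 (0.26, limma adjusted p = 0.0362). Its call held in 7 of the 17 alternatives. It was lost in edgeR (adjusted p = 0.108), under protein-coding scaling (adjusted p = 0.301), with no filter and in limma without a trend. Quantile, TMM and cyclic loess scaling lost it too, as did leaving out DMSO replicate 1 or either activator library. Of the microglia (3 tested), neural progenitor (7), Schwann and olfactory ensheathing cell (5) and dividing cell (12) lists, limma called 0, with 1, 0, 1 and 2 at an unadjusted p under 0.05. Most abundant in the progenitor, Schwann and ensheathing, and dividing cell lists were Vim, Pmp22 and Mki67, with log2 fold changes of 0.15, -0.17 and -0.22. edgeR called 2 dividing cell genes lower, among them Mki67, a marker of cycling cells, at 32.9 and 30.9 CPM with the activator and 37.6 and 37.1 CPM in DMSO (edgeR adjusted p = 0.0303, limma adjusted p = 0.0632).

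The genes whose pattern over the 4 libraries came closest to the most abundant members were found by the root mean square difference of centred log2(CPM + 1). For Olig1 they were Efcab14, Rbm19 and Tbc1d23, at 0.00376, 0.00542 and 0.00594. Within 0.05 of it lay 1025 of 13374 genes compared, so its pattern was a common one. For Cnp they were Kif1a, Fgf18 and Map3k11, at 0.0077, 0.0144 and 0.0151, with 146 genes within 0.05. With 4 libraries such likeness describes these values only.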

How the data were processed

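Total RNA of mouse cortical neuron cultures was taken up in TRIzol and ribosomal RNA was removed, per the labels' protocols. The submitters' processing notes name TopHat2, Cufflinks 2.0.0 and the build mm9, with no role for any. Which program counted the reads, over which annotation, with what strand setting and row filter, is not given in the sources used here. The authors deposited 1 table of CPM for 18854 genes. The unit was read from the values: 100% are whole multiples of 1 step per library, within 0.01 reads, which gave whole reads for count tests (1 read is 0.05245 to 0.06857 CPM).

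limma 3.58.1 in R 4.3.3 was fitted to log2(CPM + 1) of the 16654 genes that reached 1 CPM in 2 or more libraries, with a trend of the spread, 2 residual and 98 prior degrees of freedom, two-sided, and Benjamini-Hochberg adjustment over all genes tested. The median SE was 0.13. An exact permutation of 2 against 2 libraries could not pass 0.05. Alternatives were other pseudocounts (0.1, 0.5), no filter or 5 CPM, quantile, TMM, protein-coding and cyclic loess scaling, other spread models, edgeR 4.0.16 and DESeq2 1.42.0 on recovered reads, a replicate block and leaving out each library. Gene classes and exon lengths came from GENCODE vM21, in which 15861 symbols matched 1 gene. Its build differs from mm9.

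The members and lists were chosen with earlier results of these data known. Besides the members, genes named were, per list, the 2 called genes with the smallest adjusted p in each direction and the most abundant gene, plus the 3 most alike in pattern to Olig1 and to Cnp. Others were named after their values were seen. Not every gene that the rule names is reported here.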

Additional observations from a re-analysis of the deposited data

How the results depend on the processing

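The number of precursor genes called was 0 of 4 on the deposited scale and 1 with quantile normalization and 1 with cyclic loess (Cspg4 both times). It was 0 in each fit without 1 library, where the lone sample of a group is assumed to vary like the other group, and these fits have 1 residual degree of freedom. Of the myelin genes 0 were called in the 17 alternatives. The cause of these moves was not tested. With the replicate block 2 precursor genes were called, Olig1 (adjusted p = 0.0268) and Pdgfra (0.0401). The labels do not say that a number marks a shared culture, and deviations of same-numbered libraries correlated at 0.117 over 16654 genes, with 2 pairs. This does not establish a pairing, and it does not show that no culture or batch was shared. With the block 3705 genes were called higher and 3132 lower.

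All genes called higher were 2811, against 1632 with quantile normalization, 570 with protein-coding scaling, 1033 with cyclic loess, 302 without a trend, 1872 in edgeR, 1307 in DESeq2 and 1138 to 2122 without 1 library. Those called lower were 2721, against 1776 at 5 CPM, 1707 with protein-coding scaling, 1508 in DESeq2 and 1445 to 2468 without 1 library.

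Signs turned for genes that were not called. Olig2 was -0.004 with quantile normalization, -0.03 with TMM and in edgeR, -0.14 with protein-coding scaling, -0.06 with cyclic loess, and between -0.09 and 0.10 without 1 library. Cnp was -0.01 with TMM, -0.12 with protein-coding scaling, -0.02 in edgeR, and between -0.10 and 0.15 without 1 library. With protein-coding scaling Ptprz1 was -0.04, Car2 -0.03 and Vim -0.0008, and with cyclic loess Ptprz1 was -0.11 and Erbb4 -0.01. With quantile normalization Dcn was 0.04 and Map2 0.24, which was called (adjusted p = 0.0442). Without 1 library Nfasc ran between -0.13 and 0.03, Dcn between -0.15 and 0.08, and Car2 reached -0.01. At this depth Sox10 and Gpr17 rest on 6 to 26 reads a library.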

Other observations

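Cldn11, a claudin of the myelin sheath and of meningeal cells, was singled out after its values were seen because its libraries separated as those of Sox10 did. It had 5 and 11 reads with the p53 activator and 1 and 1 reads in DMSO. It lay under the filter on low values, so limma did not test it. Ugt8a of the same list, which makes a myelin lipid, stood at 3.62 and 2.6 CPM with the activator and 2.4 and 2.67 CPM in DMSO. Trf, also of that list, separated the other way, at 0.787 and 0.903 CPM with the activator and 1.44 and 1.54 CPM in DMSO. Its limma unadjusted p was 0.0449 and its limma adjusted p 0.108. Of the 11 mature genes tested, 3 were apart and higher and 2 apart and lower, beside 36.6% and 30.9% of all genes tested.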
